A study of Mus musculus with 2 samples.

Results

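Kinesins are motor proteins that use ATP to move along microtubules or to take them apart. Their genes were followed here through the chromatin accessibility map of the mouse cerebellum. All protein-coding genes of the GENCODE M21 annotation whose symbol is Kif followed by a number were taken, which gave 39 of 21829 genes. By symbol, 14 are transport kinesins (Kif1, Kif3, Kif5, Kif17, Kif21 and Kif26 families) and 10 are mitotic kinesins (Kif4, Kif11, Kif14, Kif15, Kif18, Kif20, Kif22 and Kif23 families), and 15 are other members. The symbol rule also takes in Kif1bp, which encodes a binding partner of kinesins and no motor, and 38 genes remain without it. Accessibility was measured by DNase-seq, in which the nuclease DNase I cuts open DNA in isolated nuclei, in the whole cerebellum of 2 mice, both B6CASTF1/J males at 36 days of age, with no treatment named. Mice of this name are first-generation offspring of a C57BL/6J by CAST cross. Both animals, replicates 1 and 2, form 1 group, and as their labels share a donor entry, their spread may understate that between unrelated mice. With 1 group of 2 animals no comparison between conditions and no test was possible. In each pair of values the first is from replicate 1.

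In neurons, many kinesins of the transport families carry vesicles, mitochondria, receptors and tubulin from the cell body out along axons and dendrites. The mitotic kinesins build and separate the spindle, move chromosomes and close the dividing cell. Most cerebellar cells are granule neurons, which left the cell cycle in the first weeks after birth, so the tissue holds many cells that need transport motors and few that divide.

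The map held 140127 and 114404 peaks, stretches that the authors called as open, and 342409 and 262603 footprints, short stretches inside open DNA that are protected from cutting. Peak height is the authors' signal, scaled per library in a way the sources used here do not give. Heights are therefore compared as ranks within an animal, and the sequencing depth is unknown. A height also cannot tell how many nuclei were open from how open each nucleus was. Against the tissue label, promoter peaks in both animals were found at 8 of 8 granule cell markers, 4 of 6 Purkinje cell markers, 5 of 6 astrocyte and Bergmann glia markers and 4 of 6 oligodendrocyte markers, beside 62.9% of all protein-coding genes. A promoter peak was found in either animal at 0 of 6 microglial markers, and in both animals at 0 of 6 markers of other tissues, of which the germ cell gene Ddx4 had a peak in replicate 1. All 6 genes listed as markers of dividing cells had a promoter peak in both animals, at median percentiles of 37.8 and 36.6 among all promoter peaks. For markers with a peak, these medians were 65.5 and 62.4 in granule cells and 21.9 and 18.7 in Purkinje cells. They were 7.71 and 4.28 in astrocytes and Bergmann glia, and 24.4 and 18.8 in oligodendrocytes. The 6 genes of dividing cells are also among the spindle partners described below. The part of dividing cells in the mitotic kinesin values was not tested.

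Kinesin promoters of both classes were nearly all open. A promoter was taken as 1 kb on both sides of each annotated protein-coding start, and it counted as open when a peak overlapped it. A promoter peak was present in both animals at 35 of 39 kinesin genes, beside 62.9% of all protein-coding genes. The count was 14 of 14 for transport kinesins, 9 of 10 for mitotic kinesins and 12 of 15 for the other members. The 4 genes with no promoter peak in either animal were Kif14, Kif12, Kif28 and Kif2b, beside 32.4% of all genes. None of these 4 windows held a stretch listed with a false discovery rate up to 0.05.

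The strength of open promoters overlapped widely between both classes. For each gene the highest promoter peak was ranked among those of all genes with a promoter peak in the same animal. The median percentile was 54 and 50.5 for transport kinesins, a mean of 52.2 ± 2.53 (SD, n = 2), and 60.8 and 55.9 for mitotic kinesins, a mean of 58.4 ± 3.53 (SD, n = 2). Transport genes spanned percentiles 29 to 96.8 in the first animal, and 22.9 to 90.1 in the other. The mitotic genes with a peak lay inside that span, at 42.2 to 87.6 and 40.2 to 78.5. The median number of footprints in promoter peaks was 6 and 5 for transport kinesins, 5 and 4 for mitotic kinesins, and 4 and 3 for all genes. Unlike the percentiles, these counts include genes without a promoter peak, and they add up all promoter peaks of a gene. The median number of promoter peaks was itself 2.5 and 2 for transport kinesins, 1.5 and 1 for mitotic kinesins, and 1 and 1 for all genes. Footprints per peak were not compared. The median observed-to-expected CpG ratio around the starts was 0.72 for transport and 0.69 for mitotic kinesins. It was 0.57 for the other members and 0.50 for all genes, with or without a promoter peak. The ratio was not compared with that of open promoters alone.

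Among transport motors, promoter strength differed within families. In the kinesin-1 family, the heavy chains that carry mitochondria and vesicles, Kif5c (chromosome 2, 49619298 to 49774778) had heights of 20.7 and 13.1, Kif5b, the form made in most tissues, 16.3 and 9.58, and the neuronal Kif5a (chromosome 10, 127225696 to 127263348) 7.38 and 4.64. Kif5c and Kif5b thus stood above the all-gene medians of 9.1 and 6.65, and Kif5a below them in both animals. In the kinesin-3 family, which moves synaptic vesicle precursors, Kif1b (chromosome 4, 149176319 to 149307693) had the highest promoter peak among the 39 genes in replicate 1, with 29.9 and 15.4. Kif1c reached 19.2 and 10.2 in a window shared with Inca1. Kif1a (chromosome 1, 93015464 to 93101951), the neuronal synaptic vesicle motor, had 9.99 and 6.38, on either side of the all-gene median.

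The kinesin-2 motors, which serve cilia as well as axons, spread as far. Kif3a, the shared subunit of the kinesin-2 complex, had heights of 16.8 and 10.1. Its alternative partner subunits Kif3b and Kif3c had 6.62 and 4.82, and 3.68 and 3.20. The homodimeric Kif17, a dendritic motor, had 18 and 11.2 at its first start, shared with the window of Sh2d5, and a lower peak of 5.18 and 3.92 at a second start inside the gene (chromosome 4, 138262232). As ranks, Kif3a stood at percentiles 76.1 and 69.7, Kif3b at 40.1 and 38.9 and Kif3c at 29 and 28.9, so the subunits kept their order in both animals and lay further apart than the values of each between animals.

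Of the kinesin-4 motors, Kif21a had 10.4 and 7.06 and Kif21b 6.88 and 4.16. The divergent Kif26a and Kif26b, placed in the transport class by symbol alone, had among the lowest transport values, with 4.48 and 2.19, and 4.98 and 3.61. For Kif26b the highest window peak belonged to a start deep inside the gene (chromosome 1, 178798438) with a CpG ratio of 0.20. The first start (178529125), with a ratio of 0.88, held only 2.37 and 2.03. A far higher peak, 12.2 and 8.10, lay 1.6 kb downstream of that first start (178530621 to 178530820), just outside the 1 kb window, and was counted as distal.

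**Figure D1:**
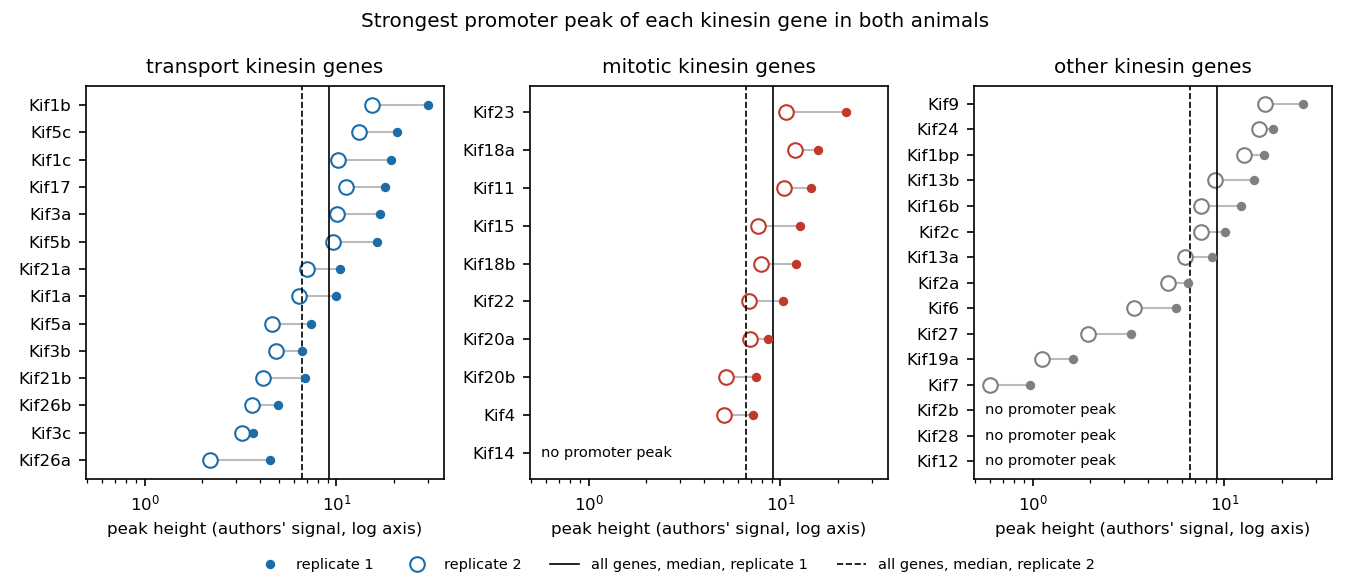
Height of the strongest promoter peak (the authors' signal, log axis) for each kinesin gene, with small filled points for replicate 1 and large open points for replicate 2. Vertical lines are the medians of all protein-coding genes with a promoter peak, 9.1 (solid, replicate 1) and 6.65 (dashed, replicate 2). Replicate 1 was higher for every gene with a peak, the mitotic genes lie within the range of the transport genes, and 4 genes had no promoter peak.

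Mitotic motors had promoter peaks in a tissue made mostly of cells that no longer divide. Kif11, which pushes spindle poles apart, had heights of 14.5 and 10.4, and Kif15, which can take over that task, 12.6 and 7.65. The Kif15 peak also lay in the window of 1110059G10Rik. Kif18a, which damps chromosome movements at the metaphase plate, had 15.6 and 11.9 in a window shared with Mettl15, and Kif18b 12 and 7.93. The chromosome-arm motors Kif22 and Kif4 had 10.3 and 6.84, and 7.15 and 5.05. Kif4 lies on the X chromosome, carried as a single copy in these male animals. The midpoint of its peak lay 264 bases downstream of its GENCODE start, in the window shared with Pdzd11.

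The motors of cytokinesis spread over the range of the class. Kif23, which bundles the midzone microtubules, had the highest mitotic value in replicate 1, with 21.9 and 10.7. Kif20a had 8.61 and 6.95, in a window shared with Brd8, and Kif20b 7.45 and 5.21. The strongest peak was shared with another gene's window in both animals for Kif15, Kif18a, Kif20a and Kif4, so that peak cannot be assigned to the kinesin alone.

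Kif14, the only mitotic gene without a promoter peak, was open at another start. Its protein-coding transcripts begin at 136467935 and further downstream on chromosome 1, and these windows held no peak. A peak at 136466181 to 136466400 lay on the 5′ end of the gene (136466343), where an annotated transcript without a coding sequence starts. Its heights were 8.47 and 4.70, with 4 footprints in each animal, which would place it at percentiles 47.5 and 38 of promoter peaks. When the starts of every transcript were used, a choice added after this peak was seen, 10 of 10 mitotic genes were open. That count follows from the peak itself and adds no evidence, and the share of all genes open under this choice is not given.

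Most mitotic kinesin promoters with a sequence held the same short motif close to the start. The cell cycle genes homology region, or CHR, is a hexamer known from promoters of genes that are switched off in resting cells and switched on before mitosis. The letters TTTGAA were searched on both strands, from 250 bases before to 50 after each start, in RefSeq promoters (GRCm38), which held 16515 protein-coding genes and 31 of the 39 kinesin genes. The hexamer was found in 8 of 9 mitotic, 2 of 11 transport and 2 of 11 other kinesin promoters, beside 17.6% of all promoters. With its first base within 25 bases of the start, a limit chosen after the sites were seen, it was found in 7 of 9 mitotic promoters, in 1 of 11 transport promoters (Kif26b) and in 0 of 11 others. The same limit held for 2.42% of all promoters and for 1.94% of those with a promoter peak in both animals. The 7 sites are shown on the strand of the gene, 5′ to 3′, with the hexamer in capitals, because they show the hexamer at its place near the start in the 7 promoters that hold it there. Coordinates are GRCm38 (mm10).
Kif11 (chr19:37376351-37376380, plus strand): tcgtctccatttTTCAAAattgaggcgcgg
Kif15 (chr9:122951050-122951079, plus strand): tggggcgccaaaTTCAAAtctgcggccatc
Kif18b (chr11:102925104-102925133, minus strand): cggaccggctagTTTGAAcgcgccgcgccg
Kif20b (chr19:34922353-34922382, plus strand): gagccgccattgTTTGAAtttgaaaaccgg
Kif22 (chr7:127042420-127042449, minus strand): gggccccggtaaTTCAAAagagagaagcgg
Kif23 (chr9:61946780-61946809, minus strand): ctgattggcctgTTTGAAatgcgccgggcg
Kif4 (chrX:100626072-100626101, plus strand): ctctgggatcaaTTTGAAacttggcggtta

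The first base of the hexamer lay at -19 in Kif11 and Kif15, -17 in Kif22, and at 3, 4, 8 and 20 in Kif23, Kif18b, Kif20b and Kif4, counted from the RefSeq start. This start can differ from the GENCODE start used for the windows, so closeness to the start depends on the annotation. For Kif4 the GENCODE start is 100625737, and the hexamer lies at 100626084 to 100626089. In Kif20b a second copy begins at base 14. Kif14 had a hexamer only far from its RefSeq start, at -228 and outside any peak, but at the open upstream start described above the letters TTCAAA lay 17 bases downstream of the start (136466360 to 136466365), inside the peak of both animals and in a footprint of replicate 1. This start was considered after its peak was seen, and such a start was searched for the hexamer in Kif14 alone. Kif14 is therefore not counted among the mitotic promoters with the hexamer near the RefSeq start. The share given for all promoters was counted from RefSeq starts and does not apply to this site. A match is a description of the letters, not proof of a bound site. All letters searched and shown here are those of the GRCm38 reference, and differences in the CAST copy of these animals were not examined.

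A minority of these hexamers lay in a footprint. Of mitotic sites inside a peak, 2 of 7 in replicate 1 and 3 of 8 in replicate 2 had their centre in a footprint, or 28.6% and 37.5%, beside 19.7% and 18.9% over all promoters. The sites of Kif11 and Kif15 were in a footprint in both animals and that of Kif18b in replicate 2, where alone the peak reached it. The sites of Kif20b, Kif22, Kif23 and Kif4 were in open DNA without a footprint in either animal. CCAAT, which often stands upstream of the CHR, was found in 6 of 9 mitotic and 4 of 11 transport promoters, beside 42.1% of all. The SP/KLF letters GGGCGGG were in 7 of 11 transport, 3 of 9 mitotic and 6 of 11 other kinesin promoters, beside 38.2% of all. They were also in 9 of 13 promoters of the spindle partner genes described below. Consensus letters of E2F (TTTCCCGC, TTTCGCGC, TTTGGCGC or TTTGCCGC) were in the promoters of Kif15 and Kif18a, in no transport promoter, and in 3.32% of all.

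**Figure D2:**
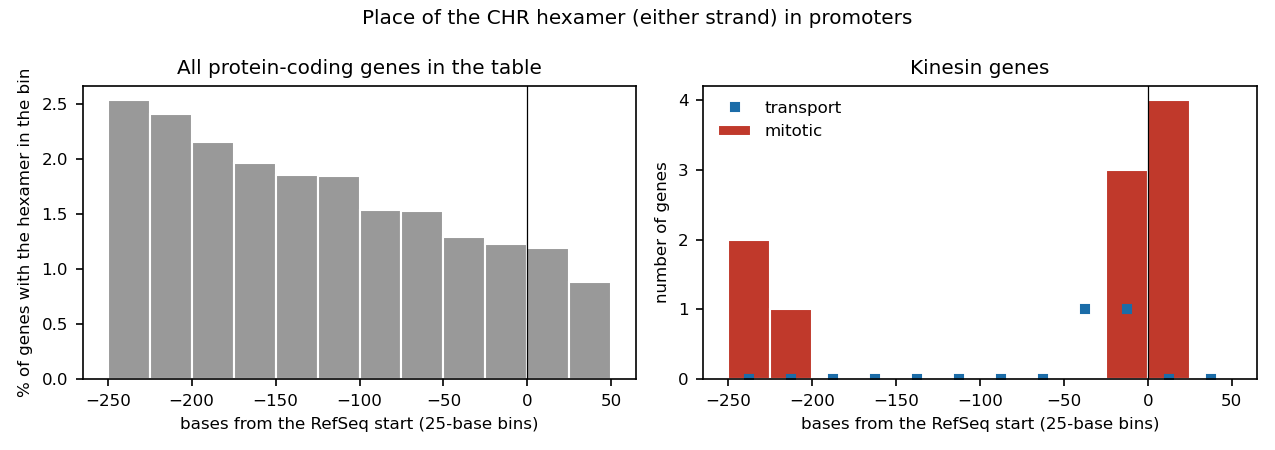
Place of the CHR hexamer on either strand, in 25-base bins from the RefSeq start. Left, percentage of all protein-coding promoters in the table with the hexamer in each bin, falling from 2.54 at the far upstream end to 0.884 downstream of the start. Right, number of mitotic (bars) and transport (squares) kinesin genes. The bins on both sides of the start hold 3 and 4 mitotic genes, and 3 further mitotic sites lie more than 200 bases upstream.

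Away from promoters the medians of both classes differed. Distal peaks were those outside every protein-coding promoter window, with their midpoint in the gene body or 10 kb on both sides. Transport kinesins had a median of 7 and 6.5 distal peaks per gene and mitotic kinesins 2 and 2, beside 2 and 1 for all genes. The median length counted was alike, 62.3 kb for transport and 66.4 kb for mitotic genes. Per 100 kb the medians were 7.96 and 7.42 for transport kinesins, a mean of 7.69 ± 0.382 (SD, n = 2), and 3.64 and 2.56 for mitotic kinesins, a mean of 3.10 ± 0.766 (SD, n = 2). All protein-coding genes had medians of 4.49 and 3.62, between both classes. The other kinesin members also lay between them, at 6 and 5.33. These sizes depend on the peak list: averaged over the animals, the smaller list gave 2.75 and 1 distal peaks per gene and 4.17 and 1.83 per 100 kb for transport and mitotic kinesins, and peaks above the median height 2.5 and 0.5, and 3.69 and 0.685 per 100 kb. The difference between the class medians was larger than the spread between animals, though genes of both classes overlapped.

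Most mitotic genes had no distal peak inside the gene at all. At 7 of 10 mitotic kinesins no distal peak lay in the gene body in either animal, against 0 of 14 transport kinesins and 3 of 15 other members. The share was 45.7% of all protein-coding genes, whose bodies are shorter (median 15.4 kb, against 47.4 kb for mitotic and 43.3 kb for transport kinesins). The 10 mitotic gene bodies, 443 kb in all, held 5 and 6 distal peaks. The 14 transport gene bodies, 1228 kb in all, held 122 and 108. This came to 1.13 and 1.35 peaks per 100 kb of mitotic gene body, and 9.94 and 8.80 per 100 kb of transport gene body. The other members had 6.24 and 5.24, beside 6.10 and 4.82 pooled over all protein-coding genes. A distal peak anywhere in the counted stretch was present in both animals at 13 of 14 transport and 7 of 10 mitotic kinesins, beside 64.5% of all genes. To allow for length, genes were put into 20 classes by the length counted. The median count of their class was exceeded in both animals by 9 of 14 transport kinesins, 8 of 15 other members and 1 of 10 mitotic kinesins, beside 34.4% of all genes. A count above the class median was thus not particular to the transport kinesins. The 1 mitotic gene was Kif14, whose count includes the peak at its other start.

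**Figure D3:**
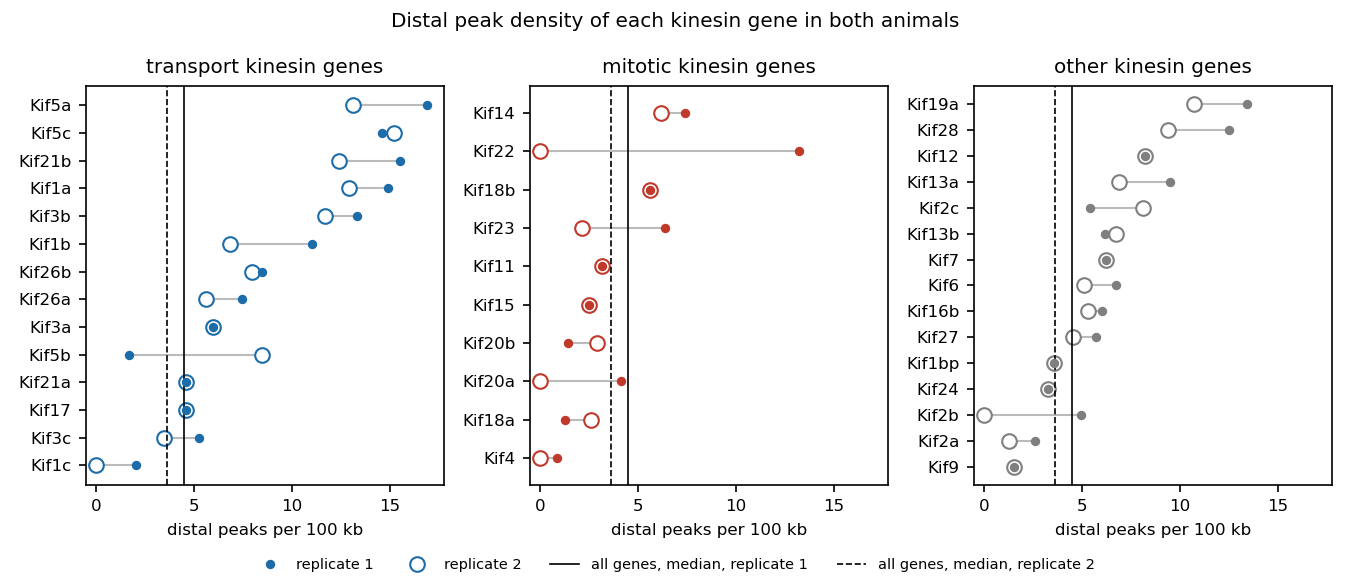
Distal peaks per 100 kb of counted stretch for each kinesin gene, with small filled points for replicate 1 and large open points for replicate 2. Vertical lines are the medians of all protein-coding genes, 4.49 (solid, replicate 1) and 3.62 (dashed, replicate 2). In both animals Kif5a, Kif5c, Kif21b, Kif1a and Kif3b lay above 11 peaks per 100 kb, and Kif22 reached 13.2 in replicate 1 and 0 in replicate 2.

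The transport genes with the most distal peaks for their length came from 4 families. Kif5c held 25 and 26 distal peaks, where genes of its length class had medians of 7 and 6, and 23 and 25 of them lay inside the gene. Kif1a held 15 and 13 against class medians of 5 and 4, and Kif5a 9 and 7 against 3 and 2. Kif21b (chromosome 1, 136131389 to 136177998) held 10 and 8, all within the gene, against class medians of 3 and 3, and Kif3b 8 and 7 against 3 and 2. These 5 genes stood at or above percentile 88.6 of their length class in both animals. Kif5a, Kif21b and Kif3b, whose promoter peaks were below the all-gene median, were thus among the genes with the most distal peaks for their length. Across the 14 transport genes promoter height and distal density had Spearman's rho of -0.18 and 0.01, a description over genes of the same libraries.

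Other transport genes were less dense or differed between animals. Kif1b had 16 and 10 distal peaks against class medians of 7 and 6, and Kif26b, the longest kinesin gene at 410 kb, 36 and 34 against 16 and 14. Kif26a had 4 and 3, Kif3a 3 and 3, Kif3c 3 and 2, Kif17 3 and 3, and Kif21a 6 and 6, the last at or below its class medians of 7 and 6. Kif5b had 1 in replicate 1 and 5 in replicate 2, so that its place among the transport genes depends on the animal. Kif1c had 1 and 0, beside a promoter peak at percentiles 82.1 and 69.9.

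**Figure D4:**
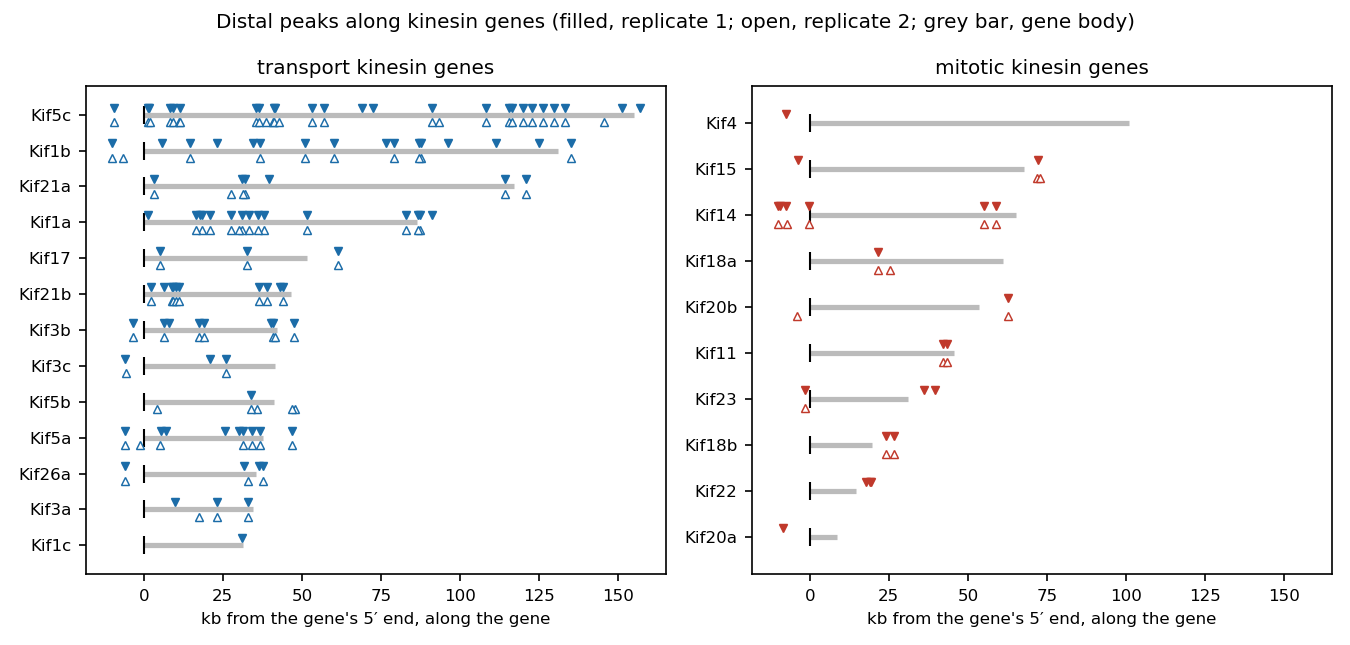
Distal peaks along transport (left) and mitotic (right) kinesin genes, in kb from the gene's 5′ end along the gene, with the gene body as a grey bar and the 5′ end as a black tick. Filled triangles above the bar are peaks of replicate 1, open triangles below it peaks of replicate 2, and Kif26b is left out for its length of 410 kb. Peaks lie along the bodies of Kif5c, Kif1b and Kif1a in both animals, whereas the bodies of Kif4, Kif15, Kif20b, Kif23, Kif18b, Kif22 and Kif20a are empty.

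For 4 transport genes, chosen after their counts were seen, the highest intron peak of replicate 1 that overlapped a peak of replicate 2 is shown. Kif3b, also named above for its many distal peaks, was left out. The peaks were taken by height, and the sequences show where footprints of both animals overlap in them. The Kif5c peak lay 53.3 kb into the gene with heights of 7.02 and 5.89, and the Kif21b peak 9.1 kb into the gene with 9.48 and 6.40, more than the Kif21b promoter peak itself. The Kif1a peak, 20.8 kb from the 5′ end, had 4.68 and 3.10, and the Kif5a peak, at 31.4 kb, 2.16 and 1.32. The sequence of each peak as called in replicate 1 is given on the strand of the gene, 5′ to 3′, in GRCm38 (mm10) coordinates. Capitals mark bases that lay in a footprint in both animals, 31 of 200 in Kif5c, 15 of 200 in Kif5a, 63 of 200 in Kif1a and 62 of 240 in Kif21b.
Kif5c (chr2:49672501-49672700, plus strand): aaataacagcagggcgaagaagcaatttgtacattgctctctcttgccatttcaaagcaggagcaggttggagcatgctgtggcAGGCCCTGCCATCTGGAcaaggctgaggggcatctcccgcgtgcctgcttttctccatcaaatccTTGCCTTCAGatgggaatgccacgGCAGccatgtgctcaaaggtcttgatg
Kif5a (chr10:127231841-127232040, minus strand): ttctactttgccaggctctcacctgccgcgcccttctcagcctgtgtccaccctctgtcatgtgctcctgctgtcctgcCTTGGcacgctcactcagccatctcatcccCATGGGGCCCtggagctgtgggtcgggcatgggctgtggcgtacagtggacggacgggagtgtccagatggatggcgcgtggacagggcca
Kif1a (chr1:93081061-93081260, minus strand): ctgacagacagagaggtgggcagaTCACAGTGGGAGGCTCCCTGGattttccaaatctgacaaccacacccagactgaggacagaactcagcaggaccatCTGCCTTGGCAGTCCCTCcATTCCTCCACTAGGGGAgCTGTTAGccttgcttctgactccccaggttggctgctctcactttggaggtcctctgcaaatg
Kif21b (chr1:136140341-136140580, plus strand): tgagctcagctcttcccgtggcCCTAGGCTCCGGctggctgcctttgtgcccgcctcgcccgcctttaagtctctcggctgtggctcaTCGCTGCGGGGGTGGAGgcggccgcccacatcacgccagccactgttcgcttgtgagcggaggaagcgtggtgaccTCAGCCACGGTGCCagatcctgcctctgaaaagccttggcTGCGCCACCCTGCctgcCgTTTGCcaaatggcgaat

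In the Kif5c peak the letters CATCTG, which are CAGATG on the other strand, stood at bases 94 to 99, all 6 within a footprint of both animals, and CAGATG stood again at bases 157 to 162 with 3 letters in a footprint. CAGATG is a form of the E-box read by proneural and NeuroD basic helix-loop-helix factors. The Kif1a peak held CATCTG at bases 98 to 103, with 3 letters in a footprint, and the letters TTGGCA, as found in nuclear factor I sites, at bases 106 to 111, all 6 in a footprint. In the Kif5a peak CAGATG stood at bases 174 to 179 outside the shared footprints, and TTGGCA at bases 81 to 86 with 4 letters in a footprint. The Kif21b peak held none of the E-box letters searched. It held TGCCAA, which is TTGGCA on the other strand, at bases 226 to 231 with 3 letters in a footprint. Over 160 bases centred on each peak, CAGATG on either strand was present in 40 of 140 and 38 of 127 transport distal peaks, or 28.6% and 29.9%, beside 22% and 24.2% of all distal peaks. Peaks of the same gene and animal are not independent, and this difference was not tested. Of the 22 and 16 mitotic distal peaks, 1 held CAGATG in each animal. The other E-box form searched, CAGCTG, was in 5 of 22 and 3 of 16 mitotic peaks, beside 14.9% and 13.3% of all. In transport distal peaks CAGCTG was present in 14.3% and 14.2%. TTGGCA was present in 20% and 26.8% of transport distal peaks and in 19.3% and 22.6% of all, a difference no larger than that between the animals.

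Most distal peaks of kinesin genes were found in both animals, as were those of the genome as a whole. Of the 140 transport peaks in replicate 1, 72.1% overlapped a peak of replicate 2 by at least 1 bp, beside 62% of all distal peaks, and of the 127 in replicate 2, 78.7% overlapped 1 of replicate 1, beside 78%. For mitotic genes the shares were 59.1% and 81.2%, and for the other members 69.3% and 82.4%. Median heights of transport distal peaks, 0.832 and 0.918, were somewhat above those of all distal peaks, 0.640 and 0.770, and 92.1% and 80.3% held a footprint, beside 78% and 72.4%.

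The few distal peaks of mitotic genes lay mostly outside the gene. Kif18a had 1 and 2 distal peaks, of which an intron peak at 21.7 kb was in both animals with heights of 2.11 and 3.48, and Kif11 a pair near its 3′ end with heights of at most 0.634. Kif18b had 2 and 2 distal peaks, all downstream of the gene, the higher at 8.55 and 3.63. Kif23 had 3 and 1, of which the peak 1.4 kb upstream of its start was in both animals with 3.83 and 2.09. Kif22 had 3 peaks downstream of the gene in replicate 1 and 0 in replicate 2. Kif15 had 2 and 2, Kif20b 1 and 2, and Kif20a and Kif4 1 and 0 each. A peak in the 10 kb beyond a gene may belong to a neighbour, which these data do not show.

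Among the remaining members, the ciliary motor Kif9 had the highest promoter peak among the 39 genes in replicate 2, with 25.6 and 16.3 in a window shared with Klhl18. Kif24, which restrains cilium formation, had 18 and 15.2 in a window shared with Nudt2. The binding partner Kif1bp had 16.1 and 12.7. The microtubule-depolymerising motors Kif2a and Kif2c, of which Kif2a acts in neurons and Kif2c at centromeres, had 6.44 and 5.08, and 10.1 and 7.51. Of the endosome and vesicle motors of the kinesin-3 family, Kif13b had 14.2 and 8.92, Kif16b 12.2 and 7.51, and Kif13a 8.58 and 6.23. Kif6 had 5.57 and 3.38. The lowest belonged to Kif27 (3.24 and 1.94), Kif19a (1.63 and 1.12) and Kif7 (0.970 and 0.602), a ciliary regulator of hedgehog signalling, which matters in granule cell progenitors before this age.

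The longest of these genes had the most distal peaks. Kif6 had 21 and 16, Kif13a 18 and 13, Kif16b 18 and 16, and Kif13b 11 and 12 distal peaks in genes of 162 to 295 kb, and each exceeded the median of its length class in both animals. The highest of them, 14.7 and 10.5, lay 1.6 kb upstream of Kif16b. Kif28, Kif12 and Kif2b had no promoter peak but 8 and 6, 2 and 2, and 1 and 0 distal peaks. Those of Kif28 lay mostly in the gene, the strongest 10.6 kb from its 5′ end with 3.73 and 2.18.

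Partner genes of both classes also had open promoters, with a lower median distal density in the spindle partners. All 16 kinesin partners and minus-end kinesins, such as the light chains and the mitochondrial adaptors, had a promoter peak in both animals. So did all 10 dynein and dynactin genes, which drive the return transport, and all 16 spindle partners, beside 62.9% of all protein-coding genes. The strongest in replicate 1 were Kifc1, a minus-end spindle kinesin (31 and 20), and the dynein chains Dync1li1 (27.6 and 16.3) and Dynll1 (26.8 and 18.3). In replicate 2 the light chain gene Klc4 (25.2 and 17.3) took the place of Dync1li1. Median distal density was 8.31 and 5.34 per 100 kb for the kinesin partners, 6.84 and 5.98 for dynein and dynactin, and 3.06 and 1.84 for the spindle partners, beside 4.49 and 3.62 for all genes. Of 16 spindle partners, 2 exceeded the median count of their length class in both animals, as did 8 of 16 kinesin partners and 6 of 10 dynein and dynactin genes, beside 34.4% of all genes. The hexamer TTTGAA was found in 9 of 13 spindle partner promoters with a RefSeq sequence, beside 17.6% of all promoters. Within 25 bases of the start, the limit chosen after the mitotic kinesin sites were seen, it was found in 5, beside 2.42% of all promoters. These were the promoters of Cdca8, Cdk1, Prc1, Racgap1 and Top2a.

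The order of kinesin genes was much the same in both animals. Spearman's rho between replicates was 0.97 for promoter height over 35 genes, 0.88 for distal count and 0.73 for distal density over 39 genes, values that share their genes and, per the labels, a donor entry. Higher promoter peaks went with CpG-richer starts, with rho of 0.53 in both animals over the 35 genes, a description across genes of the same libraries.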

How the data were processed

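DNase-seq of cerebellum from 2 male mice of 1 group was used, 1 library per animal. Per the labels, peaks, footprints and false discovery rates were made by the authors per animal on mm10, with tools not given in the sources used here. The peak value is the signal the authors deposited as height, taken from the larger of both lists. False discovery rates, akin to a p-value, were used up to 0.05 as deposited. Each deposited footprint has the same p-value entry, 0.01, so footprints gave positions only. Starts of protein-coding transcripts (GENCODE M21) were given 1000 bp windows, and distal peaks were counted with a flank of 10000 bp. Tools were pandas 2.3.3, numpy 2.4.6 and pysam 0.24.0, with samtools 1.23.1. Interval functions were tested on simulated data. RefSeq promoters (GRCm38) matched 31 of 39 members. Every transport and mitotic member was named, other members by role, and partner genes among the 3 strongest. The members and lists were chosen with earlier results of these data known. Alternatives changed the peak list, height limit, windows, starts, flank and animal.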

Additional observations from a re-analysis of the deposited data

How the results depend on the processing

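The order of the class medians held under all settings run: transport kinesins had the higher distal count and density in 12 of 12 and more promoter footprints in 11 of 11, and mitotic kinesins the higher promoter percentile in 11 of 11. Counts of open promoters were called moved only beyond 1.5 times, and none was. Medians were called moved when they differed from the main value by more than the SD between animals. By these rules 27 of 92 alternative values moved, all of them medians. Values that leave out an animal were not counted, as by construction they cannot move. With the smaller peak list the medians were 2.75 and 1 distal peaks (transport, then mitotic), 4.17 and 1.83 per 100 kb, and a transport percentile of 49.2. With peaks above the median height they were 2.5 and 0.5 peaks, 3.69 and 0.685 per 100 kb, and percentiles of 45.8 and 52.8. The same number of peaks gave 1.75 mitotic distal peaks. A window of 500 bp gave 8.44 transport peaks per 100 kb, and 2000 bp a transport percentile of 57.3, 6.25 transport footprints and 1 mitotic distal peak. Starts of basic transcripts gave a transport percentile of 46.1. The gene body only gave 5 and 0 peaks and 8.49 and 0 per 100 kb, and 50 kb on both sides 10.8 and 4.25 peaks and 7.10 transport peaks per 100 kb. Excluding only a gene's own windows gave 2.75 mitotic peaks and 4.75 per 100 kb, and starts of every transcript 1.5 mitotic peaks. The cause was not tested. No paired analysis was possible because both animals form 1 group. With 2 animals, unknown depth and mixed cell types, a missing peak does not show closed DNA in every cell type.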
